A study of Mus musculus with 4 samples.

Results

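Endothelial cells seal and couple the vessel wall through 3 kinds of contact, and the 10 genes described here encode core parts of them. They are Cldn5, Ocln, Tjp1, F11r, Jam2 and Esam of the tight junction, Cdh5 and Ctnnb1 of the adherens junction, the contact molecule Pecam1 and the gap junction gene Gja1. All 10 were found by gene symbol among the 32285 genes of the count matrices, and each had at least 1 UMI (unique molecular identifier, a counted RNA molecule) in the gated endothelial cells of every library. Tight junctions limit the passage of solutes between cells, adherens junctions hold neighbouring cells together through cadherins tied to catenins, and gap junctions pass ions and small molecules from cell to cell. In the vessels of the heart the cadherin junction is the main adhesive contact, and its loosening is a textbook feature of leaky vessels in sepsis.

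Single cells of mouse hearts were sequenced on droplets, and each of 4 groups gave 1 library. The control mice are labelled control and nothing more, and the sham mice are labelled sham. The third library is labelled cecal ligation and puncture (CLP), an operation that lets gut bacteria into the abdomen and serves as a model of sepsis. The fourth is labelled sepsis with low-level tragus stimulation, an electrical stimulation at the outer ear, and is called CLP plus stimulation. The labels give no strain, sex, age, sampling time or number of animals, and they describe the samples as all cells of the heart. Each group is a single library, so differences between groups cannot be told apart from differences between libraries or animals and no test was possible. Ranges in parentheses are 95% intervals for counting error alone.

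The libraries held 54611436 to 59465046 UMIs over 8741 to 15964 barcodes, and 7748 to 13606 cells per library were kept after filtering. Control was the shallowest per cell, with a median of 2994 UMIs against 4937.5 to 5475 in the other libraries. Endothelial cells were gated on 10 marker genes, none of them a junction gene described here, which gave 3502 control, 1802 sham, 2250 CLP and 540 CLP plus stimulation cells. Between 10.6% and 15.7% of them stood exactly at the limit of the gate, so the class is a range of marker content. Between 19 and 60 barcodes were shared by any pair of libraries, and 2 to 24 gated endothelial cells per library carried such a barcode. Inside gated endothelial cells the summed level of 10 neutrophil markers was 56.8, 66.6, 121 and 298 CPM (counts scaled to a fixed total of UMIs) in the 4 libraries, given here and throughout in the order control, sham, CLP and CLP plus stimulation, with 0 or 1 marker at 0. Mural cell markers summed to 864, 952, 941 and 487 CPM, cardiomyocyte markers to 533, 452, 454 and 259 CPM, and the endothelial panel itself to 6142, 6170, 6855 and 4677 CPM. The part of these differences in the results was not tested.

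Within the endothelial gate, subtypes were set by further markers. The capillary gate held 2568, 1219, 1231 and 267 cells in the same order, and the arterial gate 396, 225, 305 and 54. The arterial label was borne out by Gja5, a connexin gene outside the gate, at 20.5 to 66.9 CPM against 0.686 to 1.53 CPM in capillary cells. Arterial cells also carried mural markers, at a sum of 3082, 2758, 1711 and 746 CPM in the 4 libraries. In capillary cells these summed to 416, 474, 414 and 367 CPM. The endothelial panel of arterial cells summed to 6028, 6456, 6801 and 3607 CPM. The part of these differences in the arterial values was not tested. The lymphatic gate (66, 23, 36 and 9 cells) carried Pdpn at 58.2 to 266 CPM against 0.556 to 1.86 CPM in capillary cells, and the endocardial gate (88, 52, 23 and 3 cells) carried Plvap at 345 to 1059 CPM against 1.73 to 8.01 CPM. Fibroblast markers summed to 404, 456, 991 and 592 CPM in endocardial cells and to 85.3, 102, 68.6 and 61.4 CPM in capillary cells. Their part in the endocardial values was not tested. The fifth gate used the vein markers Nr2f2, Ephb4, Vwf, Slco2a1, Tmem252 and Ackr1 and held 179, 176, 487 and 140 cells. Its cells carried the capillary gene Aqp1 at 1940 to 2084 CPM, as high as capillary cells, and Ackr1 at only 0.996 to 5.07 CPM. Tmem252 reached 641 CPM in capillary cells of CLP plus stimulation against 1.34 CPM in sham. The data therefore go against calling these cells venous, and they are called the venous-marker gate. Depth differed between gates. The median was 2095.5, 3217, 3045 and 3323 UMIs in capillary cells and 3379, 5904, 5328 and 5452 UMIs in arterial cells. In venous-marker cells it was 4220, 8044.5, 7369 and 6502.5 UMIs. The part of depth in differences between gates was not tested.

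Of the 10 genes, Cldn5 stood out in the comparison of CLP plus stimulation with CLP, where it was higher by 1.94 log2 units in capillary, 1.33 in arterial and 1.89 in venous-marker cells. In capillary cells Ctnnb1 and Tjp1 were lower in CLP than in sham and lower again in CLP plus stimulation. Gja1 of capillary cells was lower in CLP than in sham, and in CLP plus stimulation its interval overlapped that of sham, which was not so in venous-marker or lymphatic cells. The promoters of these 4 genes, the members past 1.5-fold in capillary cells in the comparison of CLP plus stimulation with CLP, are shown. Each is the 250 bases before a start annotated in RefSeq, in the direction of the gene. Capitals mark every match, on either strand, to 1 of 4 short motifs. The motif of the AP-1 factors was searched as TGANTCA and the TATA box by the letters TATAAA. The GC box was searched by the letters GGGCGG. The CCAAT box was searched by the letters of its own name.
Cldn5: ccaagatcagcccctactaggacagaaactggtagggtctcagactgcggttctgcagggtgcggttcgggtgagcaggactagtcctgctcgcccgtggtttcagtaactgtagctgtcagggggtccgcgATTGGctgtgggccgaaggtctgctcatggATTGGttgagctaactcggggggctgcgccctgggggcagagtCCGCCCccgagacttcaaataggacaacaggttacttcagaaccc
Gja1: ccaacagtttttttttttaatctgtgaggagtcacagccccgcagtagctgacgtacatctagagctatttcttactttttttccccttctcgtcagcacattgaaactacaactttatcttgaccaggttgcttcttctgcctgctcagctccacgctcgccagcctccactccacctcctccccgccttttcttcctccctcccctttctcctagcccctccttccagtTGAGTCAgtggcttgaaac
Tjp1: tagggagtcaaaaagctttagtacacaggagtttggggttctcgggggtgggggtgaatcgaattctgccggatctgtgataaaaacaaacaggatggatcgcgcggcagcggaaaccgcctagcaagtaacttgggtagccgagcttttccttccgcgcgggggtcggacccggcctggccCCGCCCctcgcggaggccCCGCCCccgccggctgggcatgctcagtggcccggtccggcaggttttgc
Ctnnb1: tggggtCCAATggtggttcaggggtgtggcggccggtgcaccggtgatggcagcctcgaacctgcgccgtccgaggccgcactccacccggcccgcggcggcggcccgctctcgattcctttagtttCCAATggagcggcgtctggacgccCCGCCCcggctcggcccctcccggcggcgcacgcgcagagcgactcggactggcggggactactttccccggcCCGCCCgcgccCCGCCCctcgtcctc
The sequences are from RefSeq on build GRCm38.p6, at chr16:18776597-18776846 on the plus strand for Cldn5, chr10:56377050-56377299 on the plus strand for Gja1, chr7:65371245-65371494 on the minus strand for Tjp1 and chr9:120933150-120933399 on the plus strand for Ctnnb1, which has 2 annotated starts of which the first is shown. The gene bounds given below are from GENCODE, and the Tjp1 and Ctnnb1 windows lie inside them, before internal starts. The Cldn5 window held 1 GC box and 2 CCAAT boxes, the Tjp1 window 2 GC boxes, and the Ctnnb1 window 3 GC boxes and 2 CCAAT boxes. The Gja1 window held 1 AP-1 motif and neither a GC box nor a CCAAT box. Among the first listed windows of 27025 genes, 32.9% held a GC box, 34.5% a CCAAT box, 6.87% an AP-1 motif and 13.0% a TATA box, and a match is a description of letters only.

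Cldn5 (ENSMUSG00000041378, GRCm38 chromosome 16, 18776847 to 18778262, plus strand) encodes claudin-5, the main sealing claudin of blood vessels. In capillary cells it was 848 (827 to 870), 574 (553 to 595), 617 (594 to 640) and 2374 (2282 to 2468) CPM in the 4 libraries. Control lay above sham and CLP, and CLP plus stimulation stood far above all 3. The log2 ratio was -0.56 (-0.63 to -0.50) for sham over control, 0.10 (0.03 to 0.18) for CLP over sham, 1.94 (1.87 to 2.02) for CLP plus stimulation over CLP and 2.05 (1.97 to 2.13) for CLP plus stimulation over sham. Over all gated endothelial cells, 171 of 9131 genes with at least 100 counts had a higher ratio of CLP plus stimulation over CLP than Cldn5. In sham over control Cldn5 stood at percentile 2.28 of 9982 genes, so it also differed between the 2 libraries without CLP.

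The excess of Cldn5 in CLP plus stimulation ran through the cells rather than resting on a few. The median capillary cell held 5.59, 3.45, 2.88 and 17.9 Cldn5 UMIs per 10000 in the 4 libraries. With every cell thinned to 1000 UMIs, which left out 20 to 287 shallower cells per library, a Cldn5 UMI was found in 46.5%, 35.3%, 33.6% and 77.7% of capillary cells, and without thinning in 65.2%, 63.1%, 56.5% and 91.0%. In macrophage or monocyte cells, which should lack the gene, the share after the same thinning was 0.397% to 1.06%, at median depths of 3514.5 to 7743.5 UMIs against 2095.5 to 3323 UMIs in capillary cells. In capillary cells of 500 to 2000 UMIs, Cldn5 was 816, 432, 384 and 1841 CPM in the 4 libraries. In capillary cells of 4000 UMIs or more it was 904, 614, 669 and 2219 CPM, so the order of CLP plus stimulation above the rest was the same at low and high depth.

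**Figure D1:**
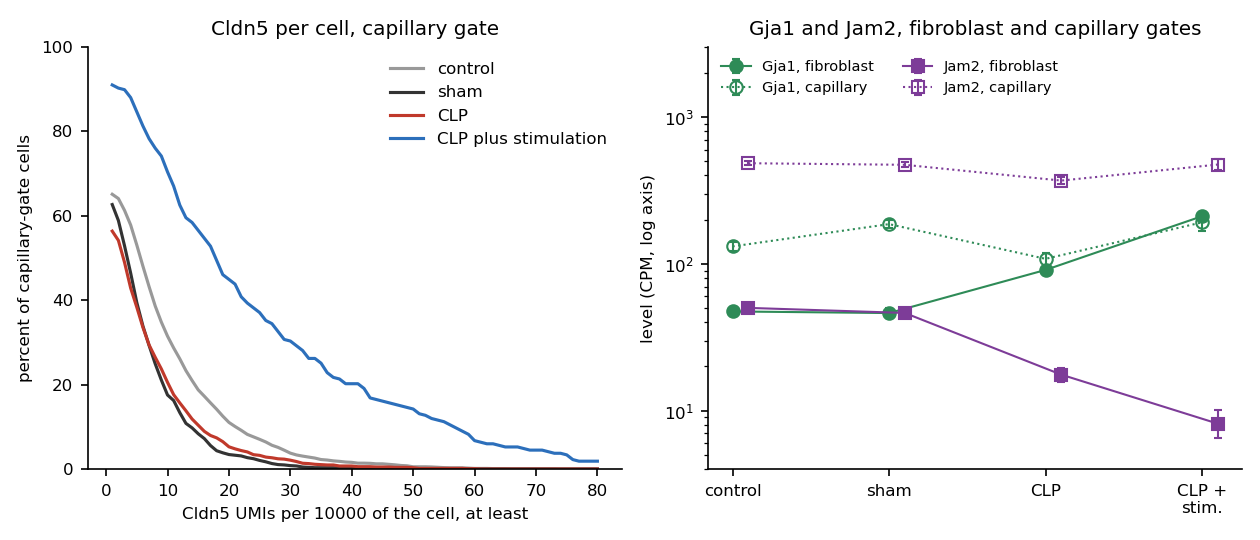
Left, the percent of capillary-gate cells (y axis) with at least the number of Cldn5 UMIs per 10000 on the x axis, 1 line per library; the line of CLP plus stimulation lies above the other 3 throughout. Right, the level in CPM (log axis, bars are 95% counting intervals) of Gja1 and Jam2 by library, filled for fibroblasts and open for capillary cells; in fibroblasts Gja1 is 46.2 CPM for sham and 211 CPM for CLP plus stimulation, and Jam2 46.3 and 8.16 CPM.

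In arterial and venous-marker cells too Cldn5 was highest in CLP plus stimulation, and in lymphatic cells it was not. Cldn5 was 803, 564, 655 and 1651 CPM in arterial cells of the 4 libraries, and 637, 523, 562 and 2082 CPM in venous-marker cells. The log2 ratio of CLP plus stimulation over CLP was 1.33 (1.20 to 1.47) in arterial and 1.89 (1.81 to 1.97) in venous-marker cells. In a further setting cells were thinned to 1000 UMIs and then gated again, so the gates held other cells than before. In CLP the capillary gate then held 1504 cells, against 1231 in the main setting. The venous-marker gate kept 20 to 58 cells per library. There sham over control turned from -0.28 to 0.91 and CLP over sham from 0.10 to -0.58, while CLP plus stimulation over CLP was 2.55. Lymphatic cells carried 2250 (2106 to 2402), 2150 (1994 to 2315), 1300 (1131 to 1487) and 1183 (1018 to 1368) CPM in the 4 libraries. There the CLP libraries lay below the other 2, with a log2 ratio of -0.72 (-0.95 to -0.50) for CLP over sham and -0.13 (-0.43 to 0.16) for CLP plus stimulation over CLP. Lymphatic cells were therefore above capillary cells in control, by 1.41 log2 units, and below them in CLP plus stimulation, at -1.0006, a library with only 9 lymphatic cells. Mural markers in lymphatic cells summed to 59.7, 18.4, 595 and 51.7 CPM in the 4 libraries. Their part in the lymphatic values was not tested. Endocardial cells, which line the heart chambers, carried 30, 62, 4 and 8 Cldn5 UMIs in all, or 111, 307, 20.8 and 197 CPM.

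**Figure D2:**
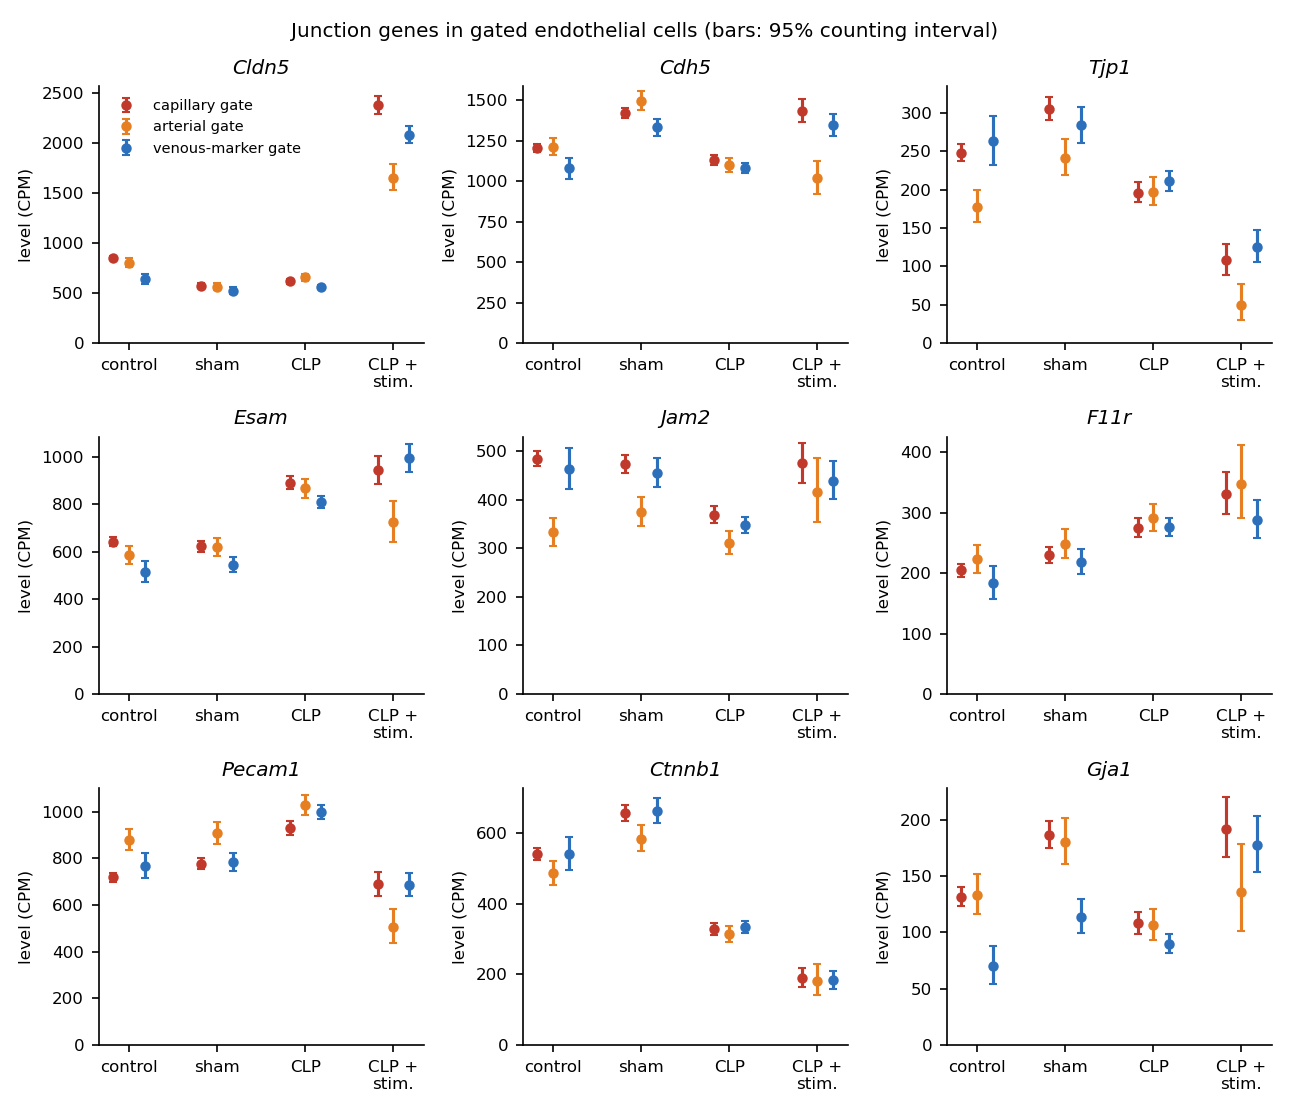
Level in CPM (y axis, from 0) of 9 junction genes in each library (x axis) for capillary, arterial and venous-marker cells; points are single libraries and bars are 95% counting intervals. Cldn5 is highest in CLP plus stimulation in all 3 gates, and in capillary cells Ctnnb1 steps down from sham to CLP to CLP plus stimulation and Gja1 is lower in CLP than in sham.

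Ocln (ENSMUSG00000021638, chromosome 13, 100496507 to 100552718, minus strand), which encodes occludin, a sealing protein of epithelia and of brain vessels, was barely detected, with 10, 12, 8 and 1 UMIs over all endothelial cells of the 4 libraries. Endocardial cells held 4, 4, 3 and 0 of these, or 14.8, 19.8, 15.6 and 0 CPM, while capillary cells held 0, 2, 1 and 0. A difference in Ocln between libraries was not detectable at this depth, and 0 counts in capillary cells of CLP plus stimulation still allow 2.79 CPM (3 counts).

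Tjp1 (ENSMUSG00000030516, chromosome 7, 65296165 to 65527781, minus strand) encodes the zonula occludens scaffold that ties claudins to actin. In capillary cells it was 248 (237 to 260), 305 (291 to 321), 196 (183 to 210) and 108 (89.2 to 130) CPM in the 4 libraries. Sham was highest and CLP plus stimulation lowest, with no overlap of the intervals. The log2 ratio was -0.64 (-0.76 to -0.52) for CLP over sham and -0.86 (-1.15 to -0.58) for CLP plus stimulation over CLP. With cells thinned to 1000 UMIs and gated again the latter was -0.50. In arterial cells of CLP plus stimulation the level was 49.7 CPM, from 19 UMIs, against 198 CPM in CLP. In fibroblasts Tjp1 was 56.4, 59.6, 59.2 and 44.2 CPM, with a log2 ratio of -0.01 (-0.14 to 0.13) for CLP over sham.

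The junctional adhesion molecules, immunoglobulin-like proteins that join at the tight junction and are docking sites for leukocytes, differed by less than Cldn5 between CLP plus stimulation and CLP, and between CLP and sham by more. F11r (ENSMUSG00000038235, chromosome 1, 171437535 to 171464603, plus strand), which encodes JAM-A, was 205, 229, 274 and 330 CPM in capillary cells of the 4 libraries. Its log2 ratio was 0.26 (0.14 to 0.38) for CLP over sham and 0.27 (0.09 to 0.44) for CLP plus stimulation over CLP. Jam2 (ENSMUSG00000053062, chromosome 16, 84774123 to 84825928, plus strand), which encodes JAM-B, was 485, 473, 369 and 475 CPM, lowest in CLP. Its log2 ratio was -0.36 (-0.45 to -0.27) for CLP over sham and 0.36 (0.22 to 0.51) for CLP plus stimulation over CLP. Esam (ENSMUSG00000001946, chromosome 9, 37528078 to 37538319, plus strand), an endothelial adhesion molecule also found on platelets, was 643, 622, 891 and 945 CPM. Both CLP libraries lay above control and sham, with a log2 ratio of 0.52 (0.45 to 0.59) for CLP over sham and 0.08 (-0.02 to 0.18) for CLP plus stimulation over CLP. For Esam the latter was -0.26 (-0.45 to -0.08) in arterial and 0.30 (0.20 to 0.40) in venous-marker cells, so the gates differed in direction. The 10 platelet markers of capillary cells had a sum of 109 CPM in control, 91.0 CPM in sham, 34.1 CPM in CLP and 98.7 CPM in CLP plus stimulation, with 4 to 7 of them at 0. Their part in the Esam levels was not tested.

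Lymphatic cells had little of Jam2 and Esam. Jam2 had 3, 1, 3 and 0 UMIs there in the 4 libraries, from 154642 to 401746 UMIs of the class. Esam was 82.1, 95.1, 73.6 and 45.3 CPM in lymphatic cells, each below the capillary cells of the same library. F11r was 274, 313, 343 and 394 CPM in lymphatic cells. Its log2 ratio of lymphatic over capillary cells was 0.43 (0.13 to 0.70) in control and 0.46 (0.14 to 0.74) in sham. In CLP it was 0.34 (-0.09 to 0.71) and in CLP plus stimulation 0.27 (-0.16 to 0.65), intervals that include 0. F11r thus did not share the low lymphatic level of Jam2 and Esam.

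Cdh5 (ENSMUSG00000031871, chromosome 8, 104101625 to 104144511, plus strand) encodes VE-cadherin, the adhesion protein of the endothelial adherens junction. In capillary cells it was 1206 (1181 to 1232), 1421 (1389 to 1454), 1132 (1101 to 1164) and 1435 (1365 to 1509) CPM in the 4 libraries. CLP was the lowest, and sham and CLP plus stimulation overlapped. The log2 ratio was -0.33 (-0.38 to -0.28) for CLP over sham and 0.34 (0.26 to 0.43) for CLP plus stimulation over CLP. In arterial cells the latter was -0.11 (-0.27 to 0.04), at 1102 CPM in CLP and 1020 CPM in CLP plus stimulation. Arterial sham held 1498 CPM, so CLP plus stimulation over sham was -0.55 (-0.71 to -0.40) there. Over all endothelial cells that ratio was -0.11 (-0.16 to -0.06). In capillary cells of 500 to 2000 UMIs Cdh5 was 1238, 1266, 1000 and 848 CPM in the 4 libraries, lowest in CLP plus stimulation. In those of 4000 UMIs or more it was 1169, 1419, 1135 and 1493 CPM, lowest in CLP. Endocardial cells carried 515, 496, 405 and 247 CPM and lymphatic cells 396, 543, 374 and 382 CPM, each below the capillary cells of its library.

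Ctnnb1 (ENSMUSG00000006932, chromosome 9, 120929216 to 120960507, plus strand) encodes beta-catenin, which binds the tail of VE-cadherin and is also a transcription cofactor of the Wnt pathway. In capillary cells it was 541 (524 to 558), 658 (636 to 680), 328 (312 to 346) and 189 (164 to 217) CPM in the 4 libraries. The 4 levels did not overlap, and both CLP libraries lay below both others. The log2 ratio was -1.002 (-1.09 to -0.91) for CLP over sham, -0.79 (-1.02 to -0.58) for CLP plus stimulation over CLP and -1.80 (-2.01 to -1.59) for CLP plus stimulation over sham. Arterial cells (487, 585, 314 and 180 CPM) and venous-marker cells (542, 663, 334 and 184 CPM) gave the same steps, and lymphatic cells (533, 604, 386 and 246 CPM) the same order. With cells thinned to 1000 UMIs and gated again, 8 arterial cells were left in CLP plus stimulation. The arterial ratio of CLP plus stimulation over CLP then turned to 0.79. Over all endothelial cells Ctnnb1 stood at percentile 5.06 of 10126 genes in CLP over sham. The gene was also lower outside the endothelium, where sham, CLP and CLP plus stimulation held 168, 138 and 95.7 CPM in fibroblasts and 88.9, 50.8 and 58.0 CPM in macrophage or monocyte cells.

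Pecam1 (ENSMUSG00000020717, chromosome 11, 106654217 to 106750628, minus strand) encodes an adhesion molecule of the endothelial cell border that also takes part in leukocyte passage. In capillary cells it was 719 CPM in control, 777 CPM in sham, 930 CPM in CLP and 688 CPM in CLP plus stimulation. CLP was highest, with a log2 ratio of 0.26 (0.20 to 0.32) over sham, and CLP plus stimulation over CLP was -0.43 (-0.55 to -0.32). In arterial cells, where CLP held 1027 CPM and CLP plus stimulation 505 CPM, that ratio was -1.02 (-1.24 to -0.81). With cells thinned to 1000 UMIs and gated again it was 0.07, from 8 arterial cells in CLP plus stimulation. Endocardial cells carried 1453, 1284 and 1728 CPM in control, sham and CLP, above the capillary cells of each of these libraries, and 617 CPM from 25 UMIs in CLP plus stimulation.

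Gja1 (ENSMUSG00000050953, chromosome 10, 56377330 to 56402513, plus strand) encodes the main connexin of working heart muscle, which endothelial cells and fibroblasts also make. In capillary cells it was 131 (123 to 140), 186 (175 to 199), 108 (98.7 to 118) and 192 (166 to 220) CPM in the 4 libraries. CLP was the lowest, and sham and CLP plus stimulation overlapped. The log2 ratio was -0.78 (-0.95 to -0.63) for CLP over sham, 0.83 (0.58 to 1.06) for CLP plus stimulation over CLP and 0.04 (-0.18 to 0.26) for CLP plus stimulation over sham. In venous-marker cells Gja1 was 69.7, 114, 89.8 and 178 CPM, and in lymphatic cells 231, 304, 196 and 136 CPM, the latter lowest in CLP plus stimulation. The log2 ratio of CLP plus stimulation over sham was 0.64 (0.36 to 0.92) in venous-marker, -0.40 (-0.86 to 0.02) in arterial and -1.13 (-1.92 to -0.47) in lymphatic cells. In venous-marker cells CLP over sham was -0.35, and 0.55 with the gate that leaves out Tmem252 and Ephb4.

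Fibroblasts and capillary cells went opposite ways in Gja1 for CLP over sham and in Jam2 for CLP plus stimulation over CLP. They went the same way in Gja1 for CLP plus stimulation over CLP and in Jam2 for CLP over sham. Fibroblast Gja1 was 47.4 (44.0 to 51.1), 46.2 (42.6 to 50.05), 90.9 (86.5 to 95.5) and 211 (202 to 220) CPM in the 4 libraries. Control and sham overlapped, CLP lay above both and CLP plus stimulation above CLP, with log2 ratios of 0.98 (0.84 to 1.11) for CLP over sham and 1.22 (1.12 to 1.31) for CLP plus stimulation over CLP. Fibroblast Jam2 went the other way from fibroblast Gja1, at 50.1, 46.3, 17.6 and 8.16 CPM, with log2 ratios of -1.39 (-1.60 to -1.20) and -1.10 (-1.48 to -0.76). Of all fibroblast genes with at least 20 counts, 25.7% were past 1.5-fold in either direction in CLP over sham and 42.9% in CLP plus stimulation over CLP.

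Cldn5, Cdh5, Esam, Jam2 and Pecam1 were low in most other cell classes. Cldn5 was 4.19 to 7.97 CPM and Cdh5 3.72 to 6.42 CPM in macrophage or monocyte cells. The ratio of Cldn5 to Cdh5 UMIs in those cells was 1.24, 0.700, 0.878 and 1.92 in the 4 libraries, in the same order as 0.753, 0.450, 0.550 and 1.62 in endothelial cells. In mural cells, the pericytes and smooth muscle of the vessel wall, Cldn5 was 70.2, 24.0, 49.6 and 314 CPM and Cdh5 64.5, 46.4, 62.0 and 188 CPM. The part of free RNA or joined cells in these values was not tested. Esam in mural cells was 315, 307, 359 and 453 CPM, and its UMIs were 4.89, 6.62, 5.80 and 2.41 times those of Cdh5, against 0.426 to 0.756 times in endothelial cells.

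**Figure D3:**
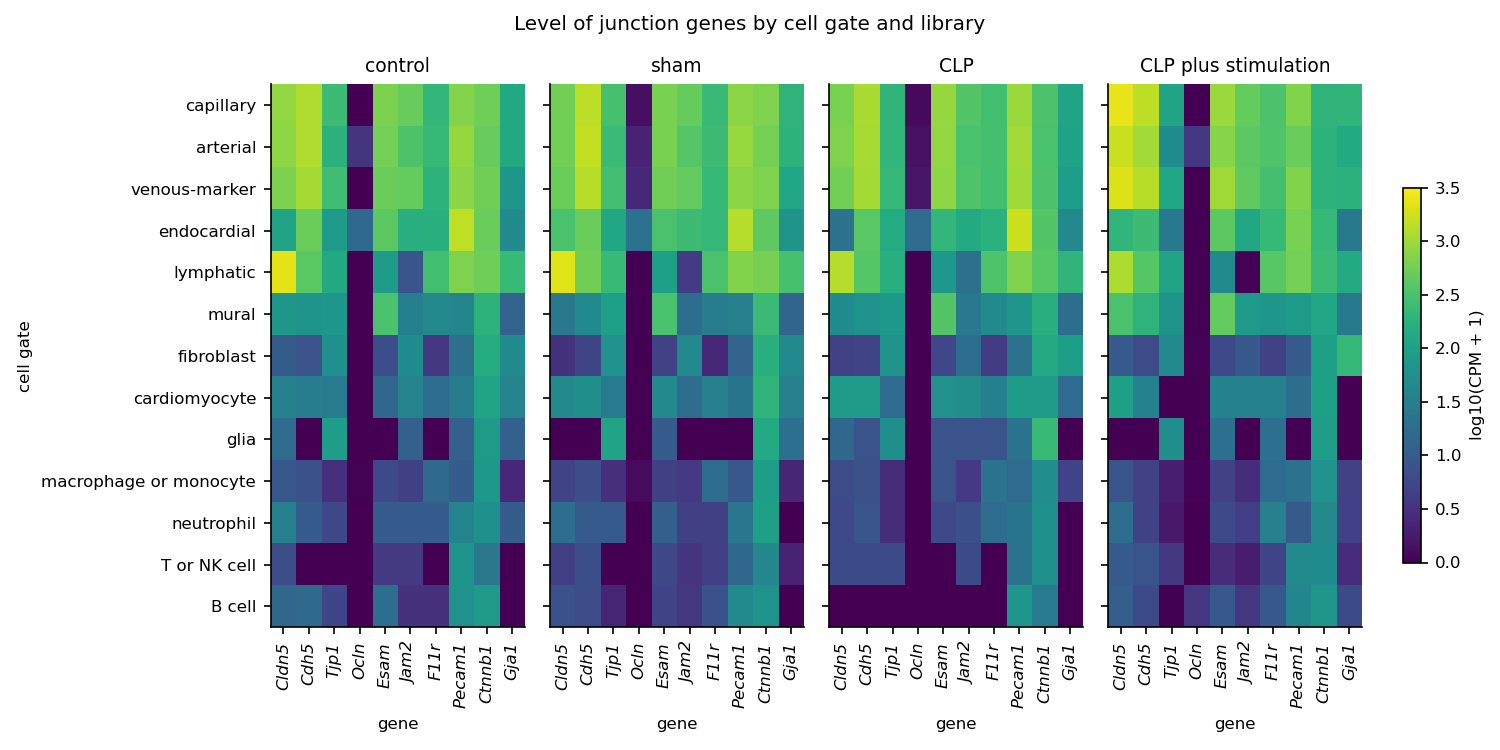
Level of the 10 junction genes (x axis) by cell gate (y axis) in each library, as log10(CPM + 1) in colour. Cldn5, Cdh5, Esam, Jam2 and Pecam1 are high in the endothelial gates and low in blood cells, Ctnnb1 is present in every gate, Jam2 is near 0 in lymphatic cells, and rows with few cells, such as the 3 endocardial cells of CLP plus stimulation, are imprecise.

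Read as a set, the junction genes were past 1.5-fold at shares near those of all genes. In capillary cells 9 of the 10 genes reached 20 counts in each comparison, Ocln being the exception. Of these 9, 0 were past 1.5-fold in sham over control, where 10.6% of all 11796 genes were. In CLP over sham the count was 3 (Ctnnb1, Gja1 and Tjp1, all lower), where 28.7% of all genes were past it, 19.1% being lower. In CLP plus stimulation over CLP it was 4 (Cldn5 and Gja1 higher, Tjp1 and Ctnnb1 lower), where 50.7% were, and in CLP plus stimulation over sham 4 (Cldn5 and Esam higher, Tjp1 and Ctnnb1 lower), where 53.2% were. The median log2 ratio of the 9 genes was 0.16, -0.33, 0.27 and 0.02 in these comparisons, beside 0.06, -0.15, -0.08 and -0.24 over all genes. Over all endothelial cells the counts were 0 of 10, 3 of 10, 5 of 9 and 3 of 9, where 9.1%, 26.9%, 49.6% and 53% of all genes were past 1.5-fold. The 3 in CLP over sham were there Ctnnb1, Gja1 and Ocln, the last from 8 and 12 UMIs with a log2 ratio of -0.99 (-2.51 to 0.40), while Tjp1 was -0.49. The comparisons share libraries and are not independent of each other. With trimmed mean (TMM) scaling the median of all capillary genes moved by 0.12 log2 units in CLP over sham and, likewise, by 0.12 in CLP plus stimulation over sham.

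**Figure D4:**
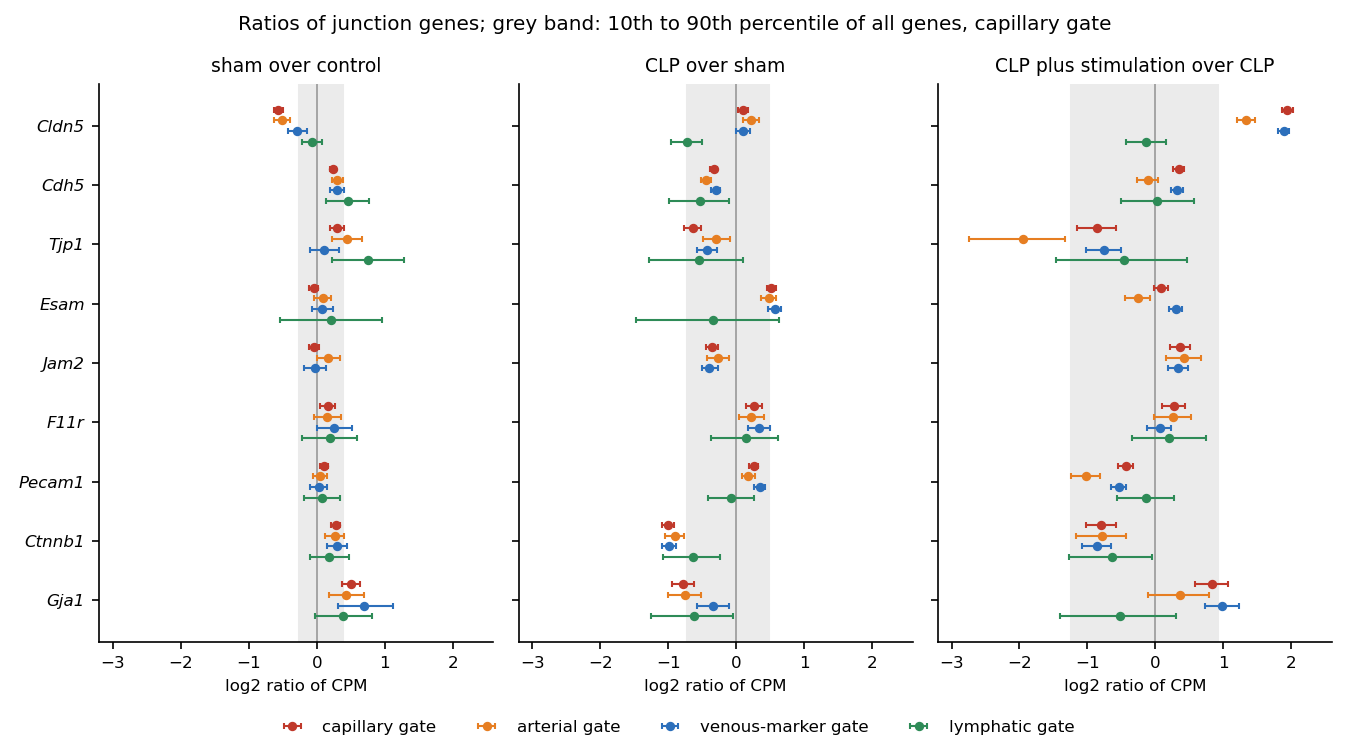
Log2 ratio of CPM (x axis) of 9 junction genes (y axis) in 3 comparisons, coloured by gate, with 95% counting intervals; ratios from fewer than 20 UMIs are left out, and the grey band is the 10th to 90th percentile of all capillary-gate genes with at least 100 UMIs. Cldn5 lies outside the band in CLP plus stimulation over CLP in capillary, arterial and venous-marker cells and inside it in lymphatic cells.

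Other genes of the same junctions were described over all endothelial cells, where 26.9% of 13096 genes were past 1.5-fold in CLP over sham (9.2% higher, 17.7% lower) and 49.6% of 12361 in CLP plus stimulation over CLP (17.9% higher, 31.6% lower). Of 17 further tight junction genes, 11 were measured in CLP over sham, of which 1 was higher and 7 lower, with a median of -0.83 beside -0.15 for all genes. The claudin gene Cldn15 was highest, at 75.7 CPM in CLP and 8.83 CPM in sham (log2 ratio 3.09), followed by the polarity gene Pard3 at 0.36. Marveld2, from 3 and 24 UMIs, and Cldn11, from 10 and 59 UMIs, were lowest, at -3.24 and -2.93. In capillary cells alone 3 of 8 measured were higher and 3 lower, with a median of -0.14.

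Of 17 adherens junction partners 1 was higher and 4 were lower in CLP than in sham, with a median of -0.25. Plekha7 (0.94, from 24 and 9 UMIs) and the nectin gene Nectin2 (0.35) were highest, and Ctnnal1 at -1.48 and Cdh11, a cadherin of fibroblasts, at -1.26 were lowest. Of the 4 gap junction genes measured, 0 were higher and 1 was lower, from Panx1 at 0.05 and Gjc1 at -0.25 down to Gja4 at -0.28 and the arterial connexin gene Gja5 at -1.21. Of 26 measured regulators of junctions 3 were higher and 4 lower, led by Rnd1 at 1.35 and the sphingosine phosphate receptor gene S1pr1 at 0.81, with Radil at -1.40 and Rock2 at -0.66 lowest. In capillary cells alone 28.7% of 11384 genes were past 1.5-fold (9.59% higher, 19.1% lower). There 0 of 13 adherens junction partners were higher and 3 lower. Of 3 gap junction genes 0 were higher and 0 lower, with Panx1 lowest. Of 24 regulators 4 were higher and 1 lower, led by Plvap and Rnd1.

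In CLP plus stimulation over CLP the same lists had 3 higher and 2 lower of 9 tight junction genes, 5 and 3 of 17 adherens junction genes, 0 and 0 of 4 gap junction genes, and 5 and 4 of 25 regulators. Their medians were -0.19, 0.12, -0.19 and 0.01, beside -0.15 for all genes. Pard3 was highest of the tight junction genes at 2.16, and Cav1, the coat gene of caveolae, was lowest of the regulators, at 277 CPM in CLP plus stimulation and 1340 CPM in CLP (log2 ratio -2.27). Rnd1 was again highest of the regulators, at 1.48.

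Across the 15 profiles of an endothelial gate in a library with at least 50 cells, the genes most like each junction gene were sought among 6110 genes by the Pearson correlation of log2(CPM + 5). Profiles of a library share its depth and RNA, so the values only describe these libraries. Cldn5 was most like Cetn3 (0.94) and Rbmx2 (0.92), and Gja1 like Cetn3 and Rsl24d1 (both 0.85). Tjp1 was most like Tcf4 (0.98) and Ostf1 (0.96), and Ctnnb1 like Dchs1 and Mtss1 (both 0.97). Cdh5 was most like Tspan15 (0.96) and Itga1 (0.95), Esam like 4930523C07Rik (0.97) and Srgn (0.96), and Jam2 like Flt1 (0.95), a gene of the endothelial gate, and Srgn (0.94). F11r was most like March5 (0.92) and Pkig (0.90), and Pecam1 like Adcy4 (0.94) and Smpd1 (0.93).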

How the data were processed

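Droplet libraries of mouse hearts, 1 each for control, sham, CLP and CLP plus stimulation, came from the Chromium 3' v3 chemistry according to the labels' protocols. Per the file headers, the authors ran Cell Ranger 5.0.0, and what they deposited are whole UMI counts of each gene in each barcode. STAR and the build mm10 are named in the submitters' processing notes. Barcodes with at least 500 UMIs, 200 genes and at most 20% mitochondrial UMIs were kept. Doublets were scored with Scrublet in scanpy 1.11.5, and the highest 0.8% per 1000 barcodes were left out (583 to 1992 per library). A cell took the lineage with at least 3 of 10 panel genes detected and 2 more than any other panel. Lymphatic cells needed 3 subtype markers and other subtypes 2, and Ccl21a had no row of its own. A cell was called capillary only if it passed none of the other subtype gates. Ties and cells that passed no gate, 5.85% to 12.4% of endothelial cells per library, were left unassigned. Counts were summed per gate and library and scaled to the summed UMIs of the gate (CPM). CPM carry exact Poisson, ratios (prior count 0.5) exact conditional binomial and shares exact Clopper-Pearson 95% intervals, and the limit of a count of 0 was set at 3 counts. These cover counting error only. With 1 library per group no test was made. The share of genes past 1.5-fold used genes with at least 20 counts. Alternatives covered TMM scaling, thinning followed by a new gating, the prior count, doublets, the mitochondrial limit, a stricter gate, Leiden clusters (leidenalg 0.10.2) and means over cells. All 10 genes were described, with the 2 highest and 2 lowest genes of each partner list in CLP over sham. Cav1 and Pard3 in CLP plus stimulation over CLP were named after their values were seen. The calculation was also run on simulated Poisson counts, the model that the intervals assume. These counts held no variation between animals or libraries, so the run could not test for it. Gene coordinates are from GENCODE vM21 (GRCm38), matched by gene ID. The junction genes and lists were chosen with earlier results of these data known.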

Additional observations from a re-analysis of the deposited data

Results flagged for a closer look

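A gene was flagged where capillary cells and another cell class were past 1.5-fold in opposite directions, with both intervals leaving out 0. Pairs with a smaller ratio on either side were not flagged. An example is Cldn5 in CLP over sham, at 0.10 in capillary and -0.72 in lymphatic cells. The rule was met by 2 genes, and neither difference was tested, since each group is 1 library. Gja1 in CLP over sham was 0.98 log2 units higher in fibroblasts and -0.78 in capillary cells. Cldn5 in CLP plus stimulation over sham was -0.86 in lymphatic cells, of which CLP plus stimulation held 9, and 2.05 in capillary cells.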

How the results depend on the processing

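Over 11 alternatives, of which 3 were chosen after seeing the data (leaving out shared barcodes, a venous-marker gate without Tmem252 and Ephb4, and endothelial cells with at most 1 marker of another lineage), the log2 ratio of Cldn5 in capillary cells of CLP plus stimulation over CLP ranged from 1.91 to 2.14, that of Ctnnb1 from -0.84 to -0.56, that of Tjp1 from -0.86 to -0.50 and that of Gja1 from 0.79 to 1.12. The number of junction genes past 1.5-fold over all endothelial cells was 0 in sham over control, 5 in CLP plus stimulation over CLP and 3 in CLP plus stimulation over sham. With TMM scaling it was 5 in the last, with thinning to 1000 UMIs 2 in the first and 5 in the last, with at most 1 other marker 2, 3 and 5, and with means over cells 1 in the first. In capillary cells sham over control gave 0, and 1 under each of these 4 settings. In arterial cells thinning turned Gja1 in CLP over sham to 0.32, Ctnnb1 and Pecam1 in CLP plus stimulation over CLP to 0.79 and 0.067, and Pecam1 in CLP plus stimulation over sham to 0.40. Other arterial signs turned too, among them Gja1 in CLP plus stimulation over CLP, from 0.36 to -1.11. Arterial Esam turned from 0.48 to -0.36 in CLP over sham and from -0.26 to 0.55 in CLP plus stimulation over CLP. In venous-marker cells thinning turned Cldn5 in sham over control to 0.91 and in CLP over sham to -0.58. Thinned cells were gated again, which moved cells between gates and left 8 arterial cells in CLP plus stimulation and 60 in sham. The gate without Tmem252 and Ephb4 turned Gja1 of venous-marker cells in sham over control to -0.21. In CLP plus stimulation over CLP it turned Jam2 of these cells from 0.34 to -0.22 and F11r from 0.06 to -0.23. The cause was not tested. The ratio of Cldn5 in CLP over sham over all endothelial cells, -0.02, became 0.13 with TMM scaling, 0.24 with thinning, 0.16 with means over cells, 0.10 with at most 1 other marker and 0.05 with cells named by cluster. No paired analysis was possible because each group holds 1 library, and for the same reason no library could be left out. The 54 arterial, 9 lymphatic and 3 endocardial cells of CLP plus stimulation limit the precision there.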
